A study of Mus musculus with 6 samples.

Results

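The TNF receptor superfamily is a group of membrane receptors that bind trimeric ligands of the TNF superfamily. Some members carry a cytoplasmic death domain, which recruits adaptors such as FADD or TRADD and can start caspase activation, and others bind TRAF adaptors directly and activate NF-kappaB and MAP kinases. Edar, which binds ectodysplasin, is required for the formation of hair follicles, and its adaptor EDARADD connects it to NF-kappaB. Levels of 10 superfamily genes, Tnfrsf12a, Eda2r, Edar, Tnfrsf19, Tnfrsf1a, Tnfrsf1b, Fas, Tnfrsf10b, Ltbr and Tnfrsf21, were followed in hair follicle stem cells. These 10 were taken by name, through their Entrez identifiers, from 36528 listed gene identifiers. They were chosen by their counts in the 6 libraries, with the difference between the treatment groups known, so their values between those groups are descriptions and carry no test.

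RNA came from skin cells of Lgr5-DTReGFP mice, sorted as CD49f+, CD34+ and GFP-. In these mice a fusion of the diphtheria toxin receptor and green fluorescent protein is expressed from the Lgr5 gene, so diphtheria toxin (DT) can remove cells that express Lgr5. The mice received DT (3 libraries) or saline, given as NaCl in the sample labels (3 libraries), and every mouse carried the same allele. The labels do not give the dose of DT, the time after it, the age or the hair cycle stage, nor whether each library came from a separate animal. The p-values below thus rest on differences among libraries of a group, and these may be only technical. In bulk RNA, fewer cells of a type and less RNA per cell cannot be told apart.

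The libraries held between 15300755 and 25558859 reads in genes, with 17405 to 20994 genes detected. The sort matched its label at the level of Cd34, at 2404 to 3085 CPM (read counts scaled to library size) in saline and 1882 to 2604 CPM in DT. The gene that carries the DT receptor, Lgr5, was at 17.3, 31.6 and 23.2 CPM in the saline libraries. It fell to 7.07, 6.98 and 7.26 CPM in the DT libraries, with log2 fold change -1.76 (SE 0.24, adjusted p = 0.000864). The p-value is from edgeR's quasi-likelihood test with Benjamini-Hochberg adjustment, used throughout. As the sort kept GFP- cells in both groups, the Lgr5 level does not measure the removal of cells that express Lgr5. Immune cell markers summed to 186.3 to 263.9 CPM in saline and 121.2 to 150.1 CPM in DT, over the 22 of 23 listed genes that were found. Of the 11 immune markers tested, 6 fell and 1, Itgam, rose (not past the threshold without DT replicate 2, adjusted p = 0.0638), and Ncr1, Mcpt4, Cpa3 and Ly6g were at 0 in all libraries. Fibroblast markers summed to 23.5 to 41.3 CPM in saline and 9.46 to 16.9 CPM in DT, with Lum at 0 throughout. Melanocyte markers summed to 13.5 to 27.4 CPM and 7.92 to 10.3 CPM in the same order. Endothelial markers summed to 2.26 to 12.9 CPM in saline and 6.56 to 8.59 CPM in DT. Of 8 markers of the sorted cells, Krt14 rose and the bulge factors Sox9, Lhx2 and Nfatc1 fell, of which Sox9 and Nfatc1 did not pass without DT replicate 2 or 3 (adjusted p up to 0.114 and 0.0566), nor Sox9 without saline replicate 1 or 2. The part of these other cells in the results on the receptors was not tested. Sample identifiers fall into 2 number series, a larger one with 2 libraries per group and a smaller one with 1 per group. Their meaning is not given, and saline replicate 3 and DT replicate 3 form the smaller series.

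Promoters of 4 members are shown: Tnfrsf12a, Eda2r and Edar, which were higher in every DT library, and Fas, whose groups overlapped. Each run spans 250 bases before to 50 bases after the annotated start, 5′ to 3′ on the gene's strand, from RefSeq (GRCm38.p6). Capitals mark matches, on either strand, to the motifs searched. The windows are chr17:23677400-23677699 on the minus strand for Tnfrsf12a, chrX:97377160-97377459 on the minus strand for Eda2r, chr10:58675647-58675946 on the minus strand for Edar and chr19:34290409-34290708 on the plus strand for Fas.
Tnfrsf12a: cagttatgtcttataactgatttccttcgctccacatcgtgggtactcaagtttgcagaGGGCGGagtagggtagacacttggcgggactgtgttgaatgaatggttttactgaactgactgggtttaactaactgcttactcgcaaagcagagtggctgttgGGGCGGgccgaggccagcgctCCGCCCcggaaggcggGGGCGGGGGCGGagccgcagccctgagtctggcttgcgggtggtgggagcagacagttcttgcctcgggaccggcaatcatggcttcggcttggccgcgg
Eda2r: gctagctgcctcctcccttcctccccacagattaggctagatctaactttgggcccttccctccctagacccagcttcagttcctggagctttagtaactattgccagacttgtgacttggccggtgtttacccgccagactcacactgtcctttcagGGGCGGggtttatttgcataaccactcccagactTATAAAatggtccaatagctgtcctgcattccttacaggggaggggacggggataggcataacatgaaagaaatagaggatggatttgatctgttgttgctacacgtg
Edar: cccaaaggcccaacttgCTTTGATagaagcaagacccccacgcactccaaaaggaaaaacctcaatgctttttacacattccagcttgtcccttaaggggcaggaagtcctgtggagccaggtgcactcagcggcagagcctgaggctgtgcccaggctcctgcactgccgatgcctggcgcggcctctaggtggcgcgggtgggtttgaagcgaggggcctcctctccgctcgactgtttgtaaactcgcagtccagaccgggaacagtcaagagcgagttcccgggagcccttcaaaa
Fas: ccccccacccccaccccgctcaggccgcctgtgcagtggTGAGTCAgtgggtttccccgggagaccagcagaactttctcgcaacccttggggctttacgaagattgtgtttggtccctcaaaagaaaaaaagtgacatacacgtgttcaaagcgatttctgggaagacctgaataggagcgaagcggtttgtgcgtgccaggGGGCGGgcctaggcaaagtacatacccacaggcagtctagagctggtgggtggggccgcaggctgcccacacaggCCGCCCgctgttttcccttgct
The search took TGANTCA for AP-1, TGACGTCA for the cyclic AMP element (CRE) and CTTTGAT for TCF/LEF factors. It took GGGCGG for the GC box that Sp factors bind, and separately the letters TATAAA for the TATA box. NF-kappaB and p53 half-sites were searched by their usual consensus and are given by name. A match is a run of letters only. The Tnfrsf12a window held 5 GC boxes, which begin 191, 87, 66, 50 and 44 bases before the start, with a GC content of 59.7% and 20 CpG, against medians of 52.7% and 7 over all 32851 promoters. The Eda2r window held a GC box 92 bases and a TATA box 58 bases before the start, with 5 CpG. Edar had a TCF/LEF match 233 bases before its start, and Fas had an AP-1 match 211 bases before its start. Of all promoters, 35.7% held a GC box, 13.6% a TATA box, 7.81% an AP-1 match and 3.73% a TCF/LEF match.
Across the 10 promoters available for 9 members, Tnfrsf19 having 2, GC boxes were present in 7, TCF/LEF matches in 2 and an AP-1 match in 1. For Tnfrsf10b no promoter was available, so it was not searched for any motif. The letters of NF-kappaB, CRE and p53 half-sites, held by 8.46%, 1.79% and 8.36% of all promoters, were in none of these 10 windows.

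Of the 10 receptors, 4 were higher in every DT library than in every saline library: Tnfrsf12a, Eda2r, Edar and Tnfrsf10b. Such a separation upwards was seen for 25.4% of the 15132 genes tested, and one downwards for 20.5%, which no member showed. Across all genes, 29.0% passed an adjusted p of 0.05, with 17.2% higher and 11.9% lower in DT. Among the 9 members that passed the filter on low counts, the same 4 were past that threshold upwards and 0 downwards, a count fixed by the way they were chosen. At an unadjusted p under 0.05, 1 tested member was lower, and DESeq2 also called 1 lower while limma-voom called 0. Nothing is read from these counts, since Eda2r and Edar passed the filter through the DT libraries only.
Summed over the 10 genes, the level was 574.3 to 612 CPM in saline and 967.6 to 1010 CPM in DT. The plot of the members by library shows these values.

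**Figure D1:**
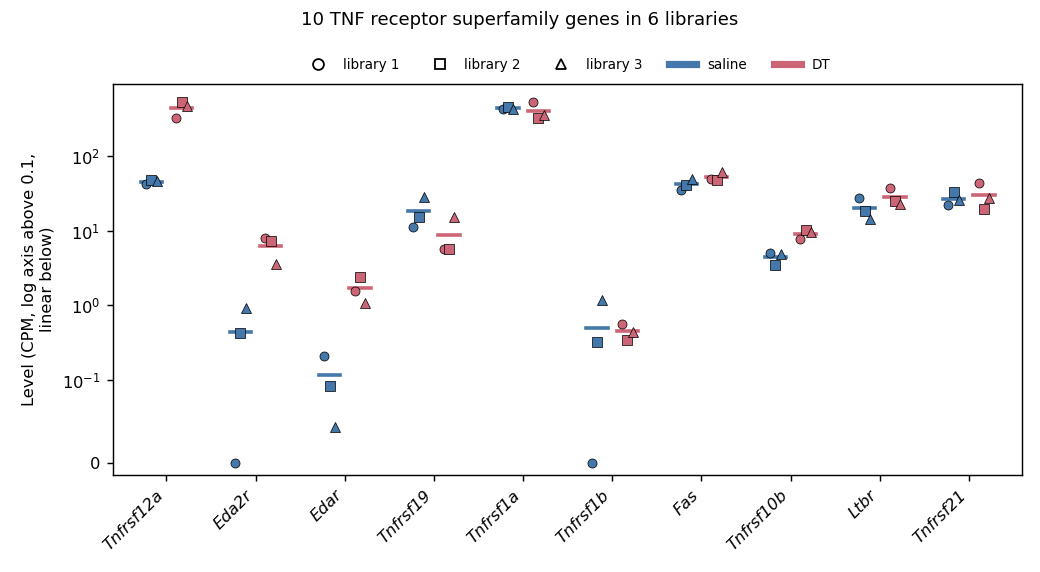
Level of each of the 10 receptors in CPM (log axis above 0.1, linear below) in the 3 saline and 3 DT libraries, with 1 point per library and bars at the group means. Tnfrsf12a, Eda2r, Edar and Tnfrsf10b lie higher in all DT libraries, while the groups overlap for the other members.

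Tnfrsf12a (Entrez 27279, chr17:23675445-23677449), the receptor for the ligand TWEAK, which signals through TRAF adaptors without a death domain, had the largest difference in CPM of the 10. It was at 42.6, 47.6 and 45.6 CPM in saline and at 326.5, 529.8 and 471.3 CPM in DT. Every DT library was far above every saline library, and the saline libraries lay close together. The mean was 45.3 ± 2.50 CPM (SD, n = 3) in saline and 442.5 ± 104.6 CPM (SD, n = 3) in DT, a log2 fold change of 3.29 (SE 0.19), or 9.78-fold. Leaving out each library in turn gave 3.11 to 3.46. In the larger identifier series DT was 9.50-fold over saline, and in the smaller series 10.3-fold. The gene shares 80 bases with Hcfc1r1, whose counts were 2523 to 3145 in saline and 2194 to 4028 in DT.

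Edar and Eda2r bind products of the ectodysplasin gene Eda. Downstream, Edar signals through the adaptor EDARADD and Eda2r through TRAF adaptors. Eda2r (Entrez 245527, chrX:97333837-97377234) was at 0, 0.416 and 0.911 CPM in saline and at 7.92, 7.24 and 3.51 CPM in DT. These values stand on 0, 9 and 21 reads in saline and 169, 108 and 88 reads in DT. All DT libraries were higher, and both the highest saline and the lowest DT library belong to the smaller identifier series. The log2 fold change was 3.80 (SE 0.79), with 3.18 without saline replicate 1, 4.91 without saline replicate 3 and 5.20 in the larger series alone. The ratio of DT to saline was 36.4 in the larger series and 3.85 in the smaller one, with no more than 21 reads in any saline library.
Edar (Entrez 13608, chr10:58600780-58675696) was at 0.207, 0.0924 and 0.0434 CPM in saline, from 5, 2 and 1 reads. In DT it was at 1.55, 2.42 and 1.08 CPM, from 33, 36 and 27 reads. Edar was thus at 1 to 5 reads in each saline library and at no fewer than 27 in each DT library. Its log2 fold change was 3.79 (SE 0.71), and it moved between 3.41 without saline replicate 3 and 4.49 without saline replicate 1.

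Tnfrsf10b (Entrez 21933, chr14:69767472-69784411), the mouse death receptor for TRAIL and a known p53 target, was at 5.05, 3.47 and 4.90 CPM in saline. In DT it was at 7.59, 10.1 and 9.45 CPM. The groups did not overlap, and the mean was 4.47 ± 0.875 CPM (SD, n = 3) in saline against 9.03 ± 1.29 CPM (SD, n = 3) in DT. The log2 fold change was 1.01 (SE 0.26), or 2.02-fold. It was 0.86 without saline replicate 2, 0.90 without DT replicate 2, 0.95 without DT replicate 3 and 1.05 in the larger series alone. In none of these fits was it past the threshold, which for a member is a description only.
Fas (Entrez 14102, chr19:34290647-34327775), the death receptor for Fas ligand, was at 34.9, 41.1 and 49.7 CPM in saline and at 49.1, 47.8 and 60.3 CPM in DT. The groups overlapped, since saline replicate 3 was above 2 of the DT libraries. Its log2 fold change was 0.32 (SE 0.17).
Tnfrsf21 (Entrez 94185, chr17:43016555-43089188), a receptor with a death domain, was at 21.8, 33.0 and 25.3 CPM in saline and at 43.9, 19.3 and 27.5 CPM in DT. The DT libraries held both the highest and the lowest value. The log2 fold change was 0.18 (SE 0.28) and became -0.19 without DT replicate 1.

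Tnfrsf1a (Entrez 21937, chr6:125349723-125362483), the widely expressed TNF receptor with a death domain, was the most abundant member in saline. It was at 431.8, 452.5 and 419.7 CPM in saline and at 529.7, 323.7 and 355.8 CPM in DT. DT replicate 1 was above all saline libraries and the other DT libraries were below them. The log2 fold change was -0.11 (SE 0.18), -0.36 without DT replicate 1 and -0.01 without DT replicate 2.
Tnfrsf1b (Entrez 21938, chr4:145212368-145246870), the TNF receptor without a death domain, was at 0, 0.323 and 1.17 CPM in saline and at 0.562, 0.335 and 0.439 CPM in DT. These were 0 to 27 reads a library, the gene did not pass the filter, and the groups overlapped.
Ltbr (Entrez 17000, chr6:125306571-125313885), the receptor for membrane lymphotoxin and LIGHT, which activates the noncanonical NF-kappaB pathway, was at 26.9, 18.3 and 14.3 CPM in saline and at 37.3, 24.9 and 22.9 CPM in DT. The highest saline library lay above the lower DT libraries. The log2 fold change was 0.52 (SE 0.27), 0.78 without saline replicate 1 and 0.26 without DT replicate 1.
Tnfrsf19 (Entrez 29820, chr14:60963834-61046855), also called TROY, a receptor related to EDAR that is present in the hair follicle bulge, had the lowest log2 fold change of the tested members. It was at 11.0, 15.3 and 28.4 CPM in saline and at 5.58, 5.57 and 15.4 CPM in DT. The highest library of each group was that of the smaller identifier series, and DT replicate 3 reached into the saline range. The log2 fold change was -1.03 (SE 0.45), -0.56 without saline replicate 3 and -1.73 without DT replicate 3. Within the larger series saline was 2.36-fold over DT and within the smaller series 1.85-fold, and with the series as a block the log2 fold change was -1.11 (SE 0.22). The spans of Tnfrsf19 and Eda2r overlap the lncRNA Gm41167 and the pseudogene Gm18111, and whether reads were counted by strand is not given.

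**Figure D2:**
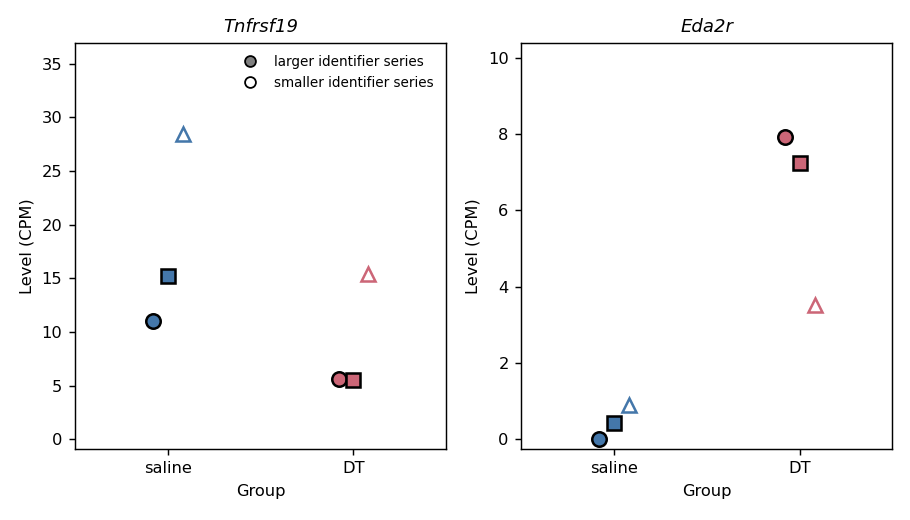
Level of Tnfrsf19 and Eda2r in CPM (linear axis) in saline and DT, with 1 point per library, filled for the larger and open for the smaller identifier series. The open points are the highest of each group for Tnfrsf19, and for Eda2r the highest in saline and the lowest in DT.

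Levels per length are in RPKM as deposited (reads scaled by gene length and depth and adjusted by size factors). Among the 10 members, Tnfrsf1a led in saline at 189.7 ± 6.76 (SD, n = 3), above Tnfrsf12a at 44.1 ± 2.40 and Fas at 21.9 ± 3.92. Ltbr at 8.91 and Tnfrsf21 at 6.92 followed with overlapping ranges, then Tnfrsf19 at 3.59 and Tnfrsf10b at 1.32. Tnfrsf1b at 0.0956, Eda2r at 0.0676 and Edar at 0.0270 were last, with ranges that overlapped from each to the next. In DT, Tnfrsf12a led at 433.6 ± 110.1 RPKM (SD, n = 3), above Tnfrsf1a at 175.7 ± 44.6, and their ranges did not overlap. Fas at 27.4, Ltbr at 12.7 and Tnfrsf21 at 7.81 came next, with the last 2 overlapping. The order then ran Tnfrsf10b at 2.68, Tnfrsf19 at 1.75, Eda2r at 0.951 and Edar at 0.398, each overlapping the next, with Tnfrsf1b below at 0.0852. Among the members, the places of Tnfrsf1a and Tnfrsf12a were thus exchanged between the groups. Over all 28 superfamily receptors, Tnfrsf12a was at rank 4 in saline and 1 in DT, and Tnfrsf1a at rank 1 and 3. In saline Tnfrsf18 at 67.15 and Tnfrsf11b at 51.9 RPKM lay above Tnfrsf12a, the latter with an overlapping range. In DT Tnfrsf18 at 199.3 RPKM lay above Tnfrsf1a, also with overlapping ranges.

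Of the summed RPKM of 28 superfamily receptors, Tnfrsf12a held 10.4%, 10.3% and 10.5% in saline and 34.4%, 50.8% and 44.5% in DT. Tnfrsf1a held 47.1%, 43.8% and 43.3% in saline and 25.0%, 13.9% and 15.1% in DT. The groups did not overlap for either share. The summed level was 400.1, 449.8 and 424.6 RPKM in saline and 907.7, 1037 and 1039 RPKM in DT, so the smaller share of Tnfrsf1a stands beside a level whose ranges overlapped.

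**Figure D3:**
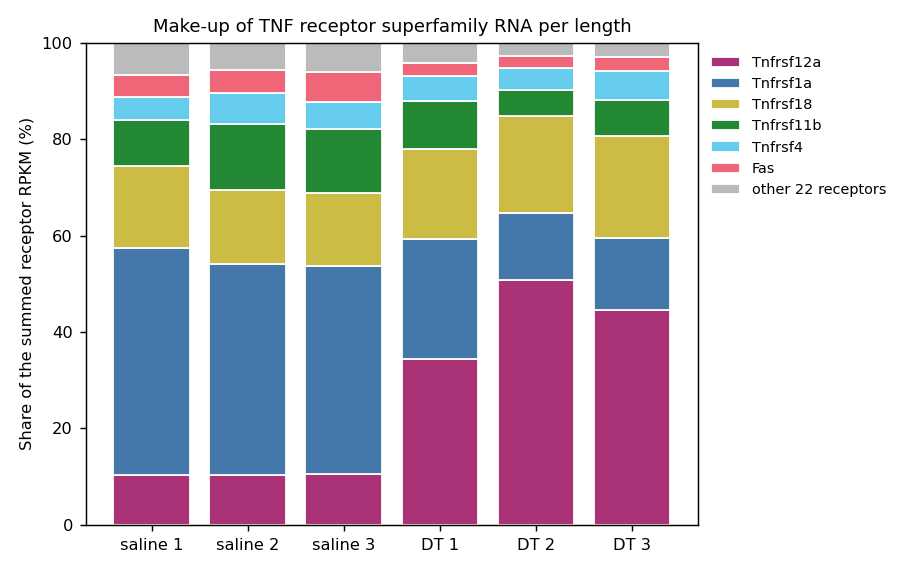
Share of the summed RPKM of 28 superfamily receptors in each saline and DT library (stacked bars, 6 leading receptors and the other 22 together). Tnfrsf12a has 10.3 to 10.5% in saline and 34.4 to 50.8% in DT.

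The other 18 superfamily receptors were tested as a list beside the members, and 4 of the 11 that passed the filter rose while 1 fell. Relt and Tnfrsf14 passed it through DT only, and Tnfrsf13b and Tnfrsf25 through saline only. The count is therefore given with no reading of the list as a whole.
Tnfrsf18 (GITR), a costimulatory receptor best known on T cells, rose from 72.7, 74.2 and 68.8 CPM in saline to 184.9, 219.9 and 233.3 CPM with DT, or 1.56 on the log2 scale (SE 0.13, adjusted p = 6.59e-05). Tnfrsf4 (OX40), also a costimulatory receptor of T cells, which lies 9708 bases away on chromosome 4, rose from 100.7, 147.4 and 124.6 CPM to 242.4, 246.2 and 316.5 CPM (log2 fold change 1.11, SE 0.17, adjusted p = 0.0015). Tnfrsf4 shares 16 bases with Sdf4, and the span of Tnfrsf18 overlaps the lncRNA Gm16008, which had 57 to 105 reads in saline and 26 to 48 in DT. The T cell genes Cd3e, Cd3g and Cd3d fell over the same libraries, with Cd3g at 23.7, 8.50 and 19.5 CPM in saline and at 6.70, 5.17 and 3.59 CPM in DT. Cd3g passed whichever library was left out. Cd3e did not pass without saline replicate 1 or 3 or DT replicate 2 or 3 (adjusted p up to 0.106). With each library left out in turn, Cd3d passed only without saline replicate 2 (adjusted p up to 0.14). The leukocyte gene Ptprc did not pass with all libraries (adjusted p = 0.23). Cd4 and Cd8a were too low to test, and Trdc was not found. Which cells held the RNA of Tnfrsf18 and Tnfrsf4 was not tested.
Tnfrsf23, a decoy receptor for TRAIL, rose from 1.78, 1.80 and 3.04 CPM to 5.76, 7.65 and 6.22 CPM (log2 fold change 1.56, SE 0.32, adjusted p = 0.00632). Tnfrsf23 is a close relative of its neighbours Tnfrsf22 and Tnfrsf26. Since only reads aligned uniquely were counted, reads that match more than 1 of these genes would be left out. Relt, a receptor that binds no known TNF ligand, rose from 0, 0.231 and 0 CPM to 1.45, 2.62 and 1.04 CPM (log2 fold change 4.41, SE 1.02, adjusted p = 0.0104). Without DT replicate 2 it was not past the threshold (adjusted p = 0.0596), and without saline replicate 1 its log2 fold change was 3.81. Its only saline reads were in saline replicate 2, and without that library the fitted value was 8.20, which depends on the prior count and is no bound. Tnfrsf25, a death domain receptor for TL1A, fell from 1.86, 2.54 and 2.34 CPM to 1.17, 0.335 and 0.399 CPM (log2 fold change -1.80, SE 0.56, adjusted p = 0.0365). Without saline replicate 2 or 3, or DT replicate 2 or 3, it was not past the threshold (adjusted p up to 0.121). Leaving out each library in turn gave log2 fold changes from -2.59, without DT replicate 1, to -1.56.
Tnfrsf11b, the secreted decoy receptor osteoprotegerin, was at 113, 186.1 and 166.9 CPM in saline and at 277.7, 161.3 and 230.7 CPM in DT, short of the threshold (adjusted p = 0.109).

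**Figure D4:**
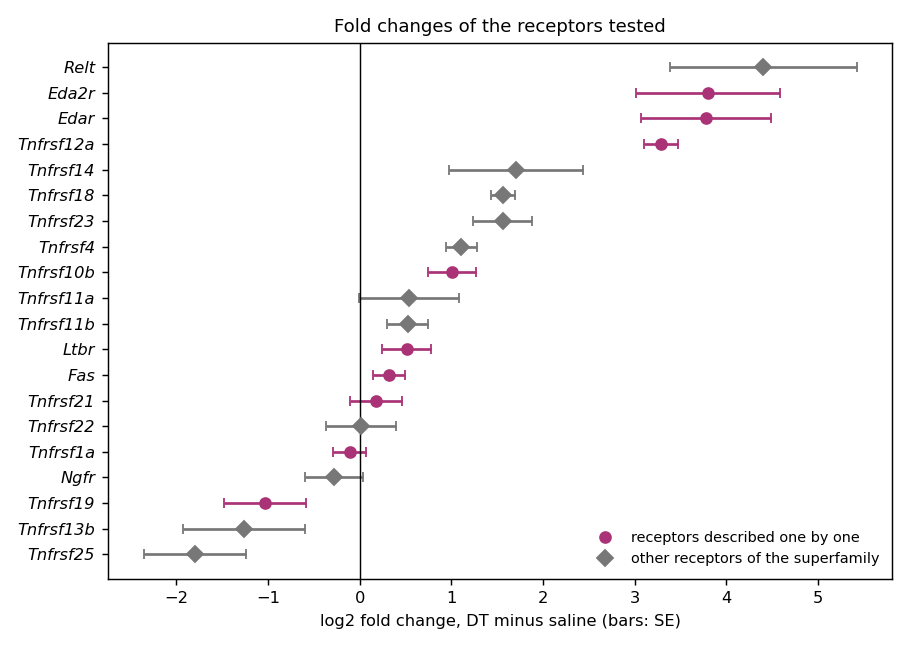
Log2 fold change of DT over saline with its SE for the tested members and the other tested superfamily receptors. The 9 members (circles) are a description, and Eda2r, Edar and Tnfrsf12a lie highest among them. Relt lies highest and Tnfrsf25 lowest among the other receptors (diamonds).

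Of 18 ligands of the superfamily, 7 passed the filter, 4 of them through DT only, and 3 rose and 1 fell. The 4 were Tnf, Cd70, Tnfsf15 and Tnfsf18, and since the 3 that rose are among them, nothing is read from the count. Tnfsf14 was at 0 in every library.
Tnf, the ligand of Tnfrsf1a and Tnfrsf1b, was at 0 in all saline libraries and at 3.23, 2.08 and 3.15 CPM in DT (adjusted p = 0.000478). Against 3 counts over the saline group this was at least 64.7-fold higher. Tnfsf15 (TL1A), the ligand of Tnfrsf25, rose from 1.16, 0 and 0 CPM to 3.98, 6.31 and 6.54 CPM (log2 fold change 3.81, SE 1.01, adjusted p = 0.0187), and did not pass without DT replicate 2 or 3 (adjusted p up to 0.0669). Its saline reads were all in saline replicate 1, and without that library the fitted value was 9.89, which is likewise no bound. With no filter and in DESeq2 it did not pass either. Tnfsf18, the ligand of Tnfrsf18, rose from 0, 0.277 and 0.651 CPM to 2.06, 1.88 and 4.19 CPM (log2 fold change 3.12, SE 0.86, adjusted p = 0.022), and did not pass without saline replicate 2 or DT replicate 2 or 3 (adjusted p up to 0.114). Without saline replicate 3 its log2 fold change was 4.29 and without saline replicate 1 it was 2.52.
Eda, the ectodysplasin gene whose products bind Edar and Eda2r, fell from 25.0, 18.3 and 14.8 CPM to 11.5, 8.59 and 9.77 CPM (log2 fold change -0.96, SE 0.24, adjusted p = 0.0148). The saline libraries were all above the DT libraries, but the gene did not pass without DT replicate 2 or 3 (adjusted p up to 0.056). The ligand and both receptors thus differed in opposite directions, with the receptors' part a description.
The ligand of Tnfrsf12a, Tnfsf12 (TWEAK), was at 0.166, 0.416 and 0.173 CPM in saline and at 0.0937, 0.201 and 0.0798 CPM in DT, too low to test. Fasl was at 0 to 0.0434 CPM in saline and at 0 to 0.0469 CPM in DT. Tnfsf10 (TRAIL), the ligand of Tnfrsf10b, was at 0.139 to 1.20 CPM in saline and at 0.134 to 0.656 CPM in DT. Among abundant ligands, Tnfsf9 was at 2.48, 3.05 and 2.78 CPM in saline and at 3.09, 4.63 and 4.95 CPM in DT without passing (adjusted p = 0.178).

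Of the 32 adaptors and proximal signalling genes, all tested, 11 rose and 1 fell, with a median log2 fold change of 0.07 against -0.01 over all genes tested. Of all genes tested, 17.2% were higher and 11.9% lower.
Ripk3 and Mlkl, the kinase and the pore-forming effector of necroptosis, rose the furthest. Ripk3 rose from 15.3, 9.43 and 11.6 CPM to 69.1, 117.5 and 89.5 CPM (log2 fold change 2.92, SE 0.24, adjusted p = 5.75e-05). Mlkl rose from 1.41, 3.42 and 0.564 CPM to 11.3, 12.8 and 12 CPM (log2 fold change 2.75, SE 0.50, adjusted p = 0.00345). Its log2 fold change was 2.32 without saline replicate 3 and 3.60 without saline replicate 2.
The other 20 genes of the list did not pass. Birc3, a ubiquitin ligase bound to TRAF2, rose from 19.7, 22.7 and 23.6 CPM to 60.5, 76.8 and 78.4 CPM (log2 fold change 1.71, SE 0.16, adjusted p = 0.000106). Tank, a TRAF-binding protein, rose from 28.1, 27.2 and 38.4 CPM to 61.7, 112 and 128.6 CPM (log2 fold change 1.69). Tnfaip3 (A20), a negative regulator of NF-kappaB, rose from 11.8, 7.62 and 8.67 CPM to 30.0, 23.9 and 26.7 CPM (log2 fold change 1.52).
Map3k14, the kinase of the noncanonical pathway, rose by 1.09 on the log2 scale, and Traf2, the adaptor of TNF receptor signalling, by 0.77. Among the remaining 4 that rose, Casp8 (log2 fold change 0.77) did not pass without DT replicate 2 or 3, with adjusted p up to 0.064. Fadd did not pass without saline replicate 2 or 3 or DT replicate 2 or 3, Cyld without saline replicate 1 or 2 or DT replicate 2 or 3, and Tnip1 without any library but saline replicate 1, with adjusted p up to 0.181, 0.114 and 0.0889.
Edaradd, the adaptor of Edar, was the gene of this list that fell. It went from 71.3, 49.6 and 58.9 CPM in saline to 28.9, 29.8 and 37.0 CPM with DT, or -0.91 on the log2 scale (SE 0.18, adjusted p = 0.00495), and it passed in all 15 alternatives. Ikbkg, with the highest mean CPM of the list over the 6 libraries, was at 96.8 to 123.6 CPM in saline and 115.3 to 117.9 CPM in DT (adjusted p = 0.851).

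**Figure D5:**
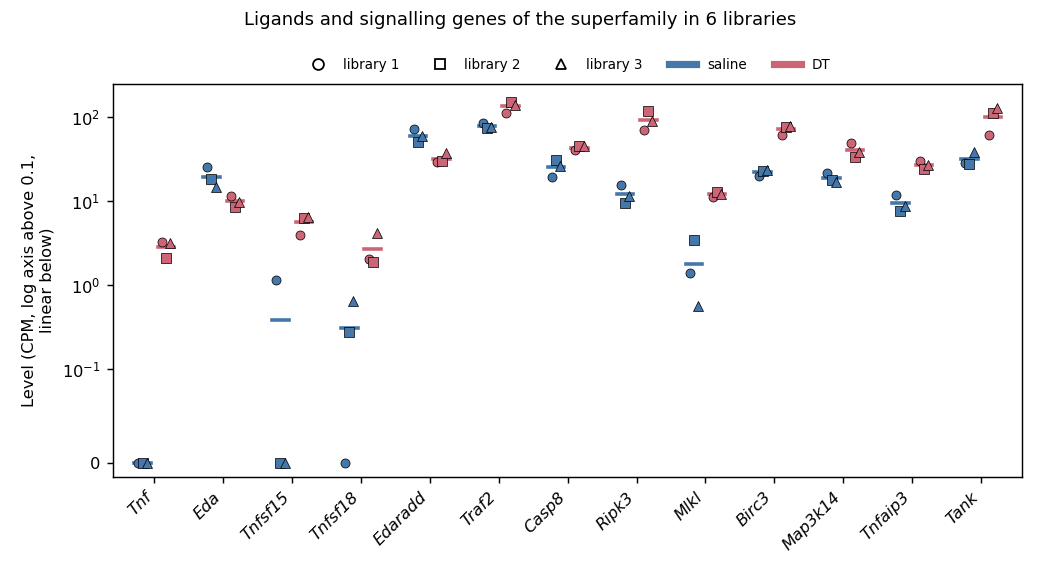
Level in CPM (log axis above 0.1, linear below) of 4 ligands and 9 adaptor or signalling genes in the saline and DT libraries, with 1 point per library and bars at the group means. Eda and Edaradd lie lower in all DT libraries, and the other genes shown lie higher in all of them.

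Lists of p53 targets and of shedding genes, chosen with earlier results of these data known, were read beside the receptors. A part of p53 or of shedding in the receptors' values was not tested. Tnfrsf10b and Fas are known p53 targets, and 5 of the 14 tested p53 targets that are not receptors rose while 0 fell, with a median log2 fold change of 0.25. Over all genes tested, 17.2% were higher and 11.9% lower, with a median of -0.01. At an unadjusted p under 0.05, 2 were lower, Ccng1 (log2 fold change -0.38) and Sesn1 (-0.55). DESeq2 called 1 lower and limma-voom 0. The 9 that did not pass also included Mdm2 at 0.22 and Trp53inp1 at -0.17. Pmaip1, a BH3-only activator of apoptosis, rose from 2.81, 3.70 and 3.17 CPM to 54.6, 128.2 and 75.6 CPM (log2 fold change 4.74, SE 0.33, adjusted p = 3.28e-05). The cell cycle inhibitor Cdkn1a rose by 1.92 on the log2 scale, the kinase Plk2 by 2.28, the nuclease Aen by 0.92 and the apoptosis effector Bax by 0.52, though Bax did not pass without saline replicate 2 or 3 or DT replicate 2 or 3 (adjusted p up to 0.11).
Receptors can be shed from the surface by ADAM proteases. Of 5 genes of shedding, Timp3, an inhibitor of ADAM17, rose from 303.4, 413.2 and 354.8 CPM to 494.6, 662.3 and 551.2 CPM (log2 fold change 0.67, adjusted p = 0.0114, and 0.056 without DT replicate 2). None of the 5 fell with edgeR, DESeq2, limma-voom or at an unadjusted p under 0.05, where 0 were lower. At that unadjusted p 3 were higher, Timp3, Adam10 (log2 fold change 0.35) and Rhbdf2 (0.42), and DESeq2 called 2 higher. Adam10 and Rhbdf2 were short of the threshold in edgeR (adjusted p = 0.0643 and 0.118). In edgeR 17.2% of all genes tested were higher and 11.9% lower, and nothing is read from the counts of these 5 genes.

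Likeness was measured to Eda2r, the tested member with the largest absolute log2 fold change and a group mean of at least 5 CPM. The 3 tested genes nearest to Eda2r over the 6 libraries were Mybl2, Itgam and Dtl. The measure was the root mean square difference of log2(CPM + 0.125) profiles, each centred on its saline mean, and it was 0.543, 0.551 and 0.566. It takes in the difference between the groups, known when Eda2r was chosen, so the likeness is a description only. Eda2r, Mybl2 and Itgam were each at 0 in saline replicate 1, and Dtl was at 0.87 CPM there. Itgam, a myeloid marker, was at 0, 0.555 and 0.477 CPM in saline and at 3.94, 6.24 and 1.91 CPM in DT. Of other myeloid markers listed, Adgre1 fell from 2.9, 0.647 and 1.91 CPM to 0, 0.0671 and 0.12 CPM (adjusted p = 0.00479). Cd68 and Csf1r did not pass (adjusted p = 0.76 and 0.48). Lyz2 and Itgax were too low to test, Lyz2 with the lower mean in DT and Itgax with the higher. Among superfamily receptors, Relt was nearest to Eda2r, at rank 141 of the tested genes, and Tnfrsf12a was at rank 159.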

How the data were processed

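PolyA RNA-seq of 6 libraries of sorted skin cells, 3 per group, was analysed. The deposited files hold, per the file headers, counts of reads aligned uniquely to each gene model and RPKM that the authors adjusted by size factors. The submitters' processing notes name the aligner GSNAP and the build GRCm38; the aligner's version, gene lengths and strandedness are not given in these sources. Symbols and coordinates came from RefSeq (GRCm38.p6), and 31049 of 36528 identifiers had a symbol.

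Counts were tested in R 4.3.3 with edgeR 4.0.16 (robust quasi-likelihood test, TMM scaling, Benjamini-Hochberg adjustment over all genes tested, threshold 0.05). The filterByExpr filter (minimum count 10, total 15; about 0.444 CPM) left 15132 genes. CPM are TMM-scaled, SE is that of the log2 fold change, and RPKM are as deposited. A fold against a group at 0 was computed against 3 counts over that group and covers counting error only. Depth was 15300755 to 25558859 reads.

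The members and gene lists were chosen with earlier results of these data known. Named are all members and, of every other list, the genes past the test or the 8 with the smallest p, with up to 3 abundant ones. Replicate numbers follow accession order and pair nothing. The 15 alternatives comprised scaling, filters, DESeq2 1.42.0, limma 3.58.1 (voom), blocks from the sample identifiers, the larger identifier series, and leaving out each library. The code was tested on simulated data.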

Additional observations from a re-analysis of the deposited data

How the results depend on the processing

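In the larger identifier series alone, with 2 saline and 2 DT libraries, 1097 genes called were higher and 473 lower, against 2600 and 1795 in the full set, and 3 other receptors, 1 ligand and 7 adaptors were past the threshold, against 5, 4 and 12. Fewer libraries enter that fit. Leaving out each library in turn gave 1564 to 2826 genes higher, 996 to 2045 lower, 3 to 5 other receptors, 1 to 4 ligands and 8 to 13 adaptors. The low ends came without DT replicate 2 or 3. Scaling by library size only moved the share of higher calls from 59.2% to 47.5% and left 9 adaptors past the threshold, without Fadd, Cyld and Tnip1; Bax was also lost, and the sign of each tested member was kept. Blocks from the sample identifiers, by series or by consecutive identifier pairs, left 5 or 6 other receptors, 4 ligands and 12 adaptors past the threshold. With these blocks the log2 fold change of Tnfrsf19 was -1.11 and -1.10 (SE 0.22 and 0.21, against 0.45 in the main fit). It was -1.04 with DESeq2 and -1.73 without DT replicate 3. Tnfrsf19 was past the threshold in these 4 of the 15 alternatives and not in the main fit. Whether consecutive identifiers mark pairs is not given. For a member these values are descriptions and no test.

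Of 135 alternative values for the members, 133 moved by less than the spread between replicates, and Eda2r (5.20, larger series) and Edar (4.49, without saline replicate 1) by more. This count cannot measure stability. Leaving out 1 of 3 libraries moves a group's mean log2 level by less than that spread, and most other alternatives refit the same counts. Tnfrsf21 changed sign in 1, at -0.19. Reads limit Eda2r, Edar and Tnfrsf1b, which had 27 or fewer reads in each saline library.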
